A study of Mus musculus with 7 samples.

Results

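Carbonic anhydrases catalyse the exchange of carbon dioxide and water for bicarbonate and a proton, and so set how fast a cell and the space around it can buffer acid. The members followed here in nuclei of the striatum are Car2, Car4, Car7, Car8, Car10, Car11 and Car12, which are 7 of the 27998 genes in the deposited tables. The members were selected on measured values of the same nuclei, their levels in each cell type and their difference between genotypes. Their own levels and differences are therefore given as descriptions, and tests are given only for other genes. Where the fit over all genes put a member past its threshold, this is stated beside the share of all genes past it, as a description that supports nothing.

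The nuclei came from 4 male HttQ175/+ mice and 3 male wild-type (WT) mice, all of strain C57BL6/J. HttQ175 is a knock-in allele in which the CAG repeat of huntingtin is expanded; the mice carry it in 1 copy, in every cell, and serve as a model of Huntington's disease. HttQ175/+ replicate 1 was 15 months old, and the other 3 HttQ175/+ mice and all WT mice were 14 months old. Each mouse gave 1 droplet library of 3' transcript ends, and differences are judged between mice; the numbers 1 to 4 and 1 to 3 are names and pair no mice.

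HttQ175/+ mice gave 448 to 1239 nuclei each and WT mice 338 to 558, in all 4524, with 1128 to 5632 unique molecular identifiers (UMIs) per nucleus. The authors' annotation put them in 12 types, and 3 of 4521 barcode sequences occurred in more than 1 library. Marker genes of astrocytes, oligodendrocytes, oligodendrocyte progenitors, microglia, endothelium and cholinergic interneurons were all highest in the type of that name. Among the neuron lists, the markers Tac1 and Pdyn of the direct pathway were highest in eccentric spiny projection neurons (SPNs), and Isl1 in cholinergic interneurons. The eccentric SPN markers Col11a1 and Pcdh8 were highest in Sst and in Pnoc/Pvalb interneurons, and Pnoc was nearly undetected (2.38 CPM at most). Htt itself stood at 123.2 to 197.5 CPM in HttQ175/+ mice and 177.9 to 200.3 CPM in WT mice in SPNs of the direct pathway (dSPNs), and its 3' tags lie far from the repeat and do not check the genotype. Levels are given in CPM (counts scaled to the same total UMIs in every nucleus), averaged over the nuclei of a type in a mouse.

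The family holds enzymes and relatives without activity. Car2 and Car7 are cytosolic enzymes, Car4 is an enzyme anchored to the outer membrane face, and Car12 is a transmembrane enzyme with its catalytic domain outside the cell. Car8, Car10 and Car11 are carbonic anhydrase related proteins. Car8 stays inside cells, where it binds the inositol trisphosphate receptor Itpr1, and Car10 and Car11 are secreted ligands of neurexins. An active enzyme holds a zinc ion with 3 histidines, and the coding letters at the first 2 of them show the division. The 21 bases around these sites are given below with the codons of the 2 zinc sites in capitals, where CAC codes for histidine.

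Car2: cagtttCACtttCACtggggc
Car4: cagttgCACctgCACtggtca
Car7: cagctcCACttcCACtggggc
Car8: gaagttAGAtttCACtgggga
Car10: gaaatcCGGctaCACtttggg
Car11: gaactgCGCctgCTAtttgga
Car12: cagctgCACttgCACtggggg

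The stretches are those of the GENCODE vM21 principal transcripts on GRCm38 (mm10), and each lies within 1 exon. Car2 was read at chr3:14895063-14895083 in exon 3, Car4 at chr11:84964161-84964181 in exon 4 and Car7 at chr8:104547728-104547748 in exon 3, all on the plus strand. Car8 was read at chr4:8221607-8221627 in exon 3 on the minus strand. Car10 was read at chr11:93490600-93490620 in exon 5, Car11 at chr7:45702542-45702562 in exon 4 and Car12 at chr9:66747641-66747661 in exon 4, all on the plus strand. Counted in Car2 from its first methionine, the zinc histidines are at positions 94, 96 and 119. Car2, Car4, Car7 and Car12 kept all 3. Car8 carried H94R and kept 2, Car10 carried H94R and H119Q and kept 1, and Car11 carried H94R, H96L and H119Q and kept 0. Identity to the 260 residues of Car2 was 55.0% for Car7, 43.3% for Car8, 37.5% for Car12, 33.3% for Car4 and for Car11, and 33.2% for Car10.

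The types differed in how their carbonic anhydrase UMIs were divided among the members. Over all nuclei Car11 gave 1420 UMIs, Car2 1063, Car12 470, Car7 222, Car10 114, Car4 97 and Car8 25. In oligodendrocytes Car2 made up 81.5% of 530 members' UMIs in HttQ175/+ mice and 85.2% of 439 in WT mice. In endothelial nuclei Car4 made up 69.1% of 81 in HttQ175/+ mice and 77.8% of 36 in WT mice. Car11, a protein without the zinc site, was the most frequent member in dSPNs, with 54.6% of 496 UMIs in HttQ175/+ mice and 61.7% of 640 in WT mice. In SPNs of the indirect pathway (iSPNs) it held 53.5% of 243 and 72.7% of 396. In Sst interneurons Car10 and Car11 came to 31.6% and 27.6% of 98 in HttQ175/+ mice, and each to 40.0% of 30 in WT mice. Pooled over genotypes, Car11 also made up 58.9% of 107 UMIs in eccentric SPNs and 53.6% of 28 in SPNs of unknown subtype. Car2 made up 51.6% of 157 in astrocytes. Over both genotypes, oligodendrocyte progenitors held 39.2% Car11, 23.5% Car2 and 19.6% Car8 of 51 UMIs. Microglia held 41.2% Car11, 20.6% Car7 and 17.6% Car12 of 34 UMIs. The SPN markers Ppp1r1b, Pde10a, Rgs9 and Bcl11b summed to 1177 to 3573 CPM in microglia of 4 HttQ175/+ mice. In microglia of the 2 WT mice with at least 5 such nuclei they summed to 5170 to 5398 CPM. The part of SPN RNA in the microglial shares was not tested. All values in this paragraph but the totals and markers are shares of 3' UMIs, which are not divided by transcript length and do not compare amounts of RNA between genes.

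**Figure D1:**
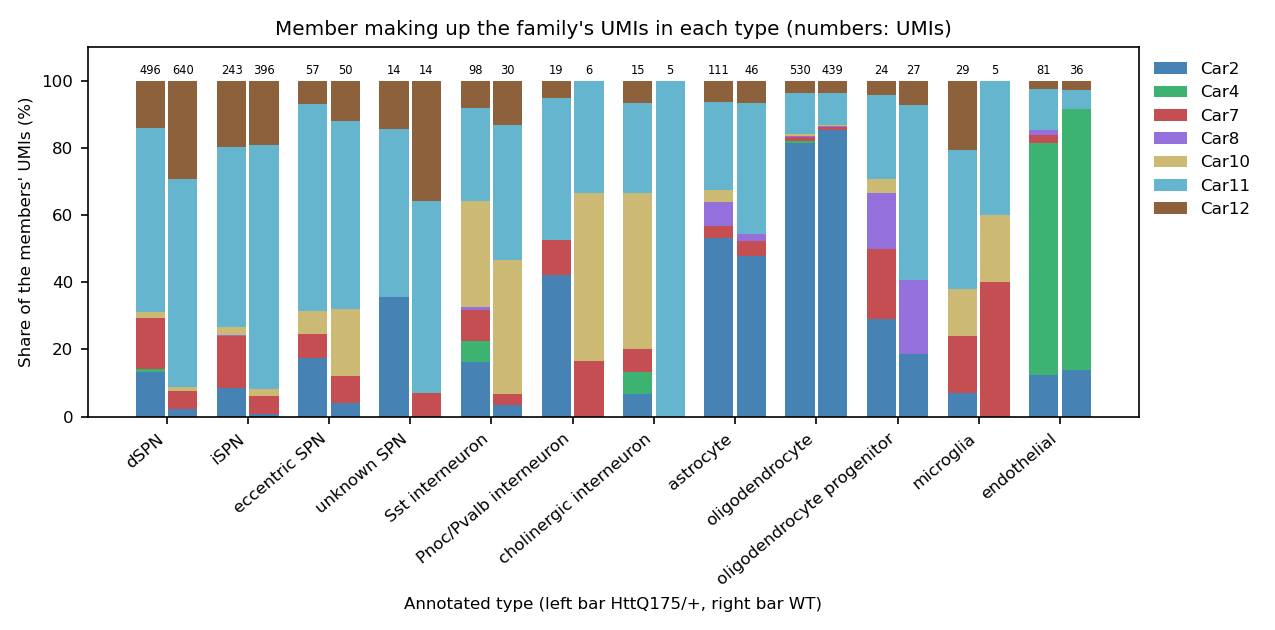
Share of the 7 members' UMIs held by each member (vertical axis, percent) in the 12 annotated types, pooled over the mice of a genotype, with HttQ175/+ left and WT right; the number over a bar is its count of UMIs. Car2 fills most of the oligodendrocyte bars, Car4 most of the endothelial bars, and Car11 more than any other member in the dSPN and iSPN bars.

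Car2, the fast cytosolic enzyme known from myelinating glia, was the member with the highest level anywhere. Averaged over the 7 mice it reached 1074.6 ± 597.5 CPM (SD) in oligodendrocytes and 136.2 ± 36.3 CPM in astrocytes, and the mice did not overlap between these types, with 520.2 CPM the lowest in oligodendrocytes and 191.6 CPM the highest in astrocytes. Endothelial nuclei (71.8 CPM) and oligodendrocyte progenitors (69.9 CPM) came next and overlapped with astrocytes. All neuron types averaged under those 4. Of the 1063 Car2 UMIs, 806 were in oligodendrocytes.

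Car2 was lower in oligodendrocytes of HttQ175/+ mice. HttQ175/+ replicates 1 to 4 had 531.6, 520.2, 910.7 and 525.9 CPM, and WT replicates 1 to 3 had 1445.5, 1934.3 and 1653.6 CPM. All 4 HttQ175/+ mice lay below all 3 WT mice, and replicate 3 lay apart from the other 3 HttQ175/+ mice. The log2 change was -1.46 ± 0.27 (SE, limma). Of 7 members 2 passed the filter on low genes in oligodendrocytes, and Car2 was the 1 past the threshold of an adjusted p under 0.05, which 0.63% of the 3650 genes tested there passed (4 rose, 19 fell). It was also the 1 member with every HttQ175/+ mouse below every WT mouse, as were 4.58% of those genes. Its place past the threshold was lost with no filter on low genes (-1.46) and in 6 of the 7 fits that left out a mouse, all but that without HttQ175/+ replicate 3, over which the log2 change was -1.67 to -1.39. A Car2 UMI was seen in 47.0% of 347 HttQ175/+ nuclei (95% exact binomial interval 41.6 to 52.4%) and 66.9% of 121 WT nuclei (57.8 to 75.2%). With each nucleus thinned to 1000 UMIs these shares were 34.3% and 59.5%. The intervals cover counting error over pooled nuclei and not the spread between mice. By mouse the shares were 40.7 to 56.1% in HttQ175/+ mice and 57.1 to 72.2% in WT mice. After thinning they were 31.2 to 47.4% and 48.6 to 65.6%, so the groups lay close at their ends. In dSPNs, neurons outside the known sites of Car2, the shares were 4.48% and 1.75%, at median depths of 2008 and 2753 UMIs, against 2167 and 1972 UMIs in oligodendrocytes.

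Mobp, a basic protein of myelin, moved with Car2 in the same nuclei. It had 435.0, 285.3, 1026 and 448.0 CPM in HttQ175/+ replicates 1 to 4, against 1530, 1139 and 1787 CPM in WT replicates 1 to 3. All HttQ175/+ mice lay below all WT mice, with a log2 change of -1.57 ± 0.34 (limma, adjusted p = 0.026). The myelin genes Mog and Mbp had log2 changes of -0.79 ± 0.29 and -0.64 ± 0.25 and did not pass (limma, adjusted p = 0.215 and 0.237). Replicate 3 was the highest HttQ175/+ mouse for all 3 genes. The Mobp call was lost in the fits that left out any mouse except HttQ175/+ replicate 3.

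The 4 SPN markers in oligodendrocyte nuclei had a summed level of 1084 to 2026 CPM in HttQ175/+ mice and 2014 to 2575 CPM in WT mice. These ranges overlapped at their ends, and none of the 4 genes passed there (limma, adjusted p = 0.355 or more). In dSPNs the same 4 markers summed to 3068 to 3439 CPM in HttQ175/+ mice and 7073 to 7589 CPM in WT mice. Their level in oligodendrocyte nuclei therefore does not compare SPN RNA between genotypes. Oligodendrocyte nuclei with no UMI of the 4 SPN markers were 126 of 347 in HttQ175/+ mice and 59 of 121 in WT mice. In them Car2 was 797.9 to 1034 CPM in HttQ175/+ mice and 2528 to 3165 CPM in WT mice. Because the markers were lower in HttQ175/+ SPNs, nuclei without their UMIs are not alike between genotypes, and these levels are descriptions. The part of the Mobp difference and of the SPN markers in the Car2 difference was not tested.

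**Figure D2:**
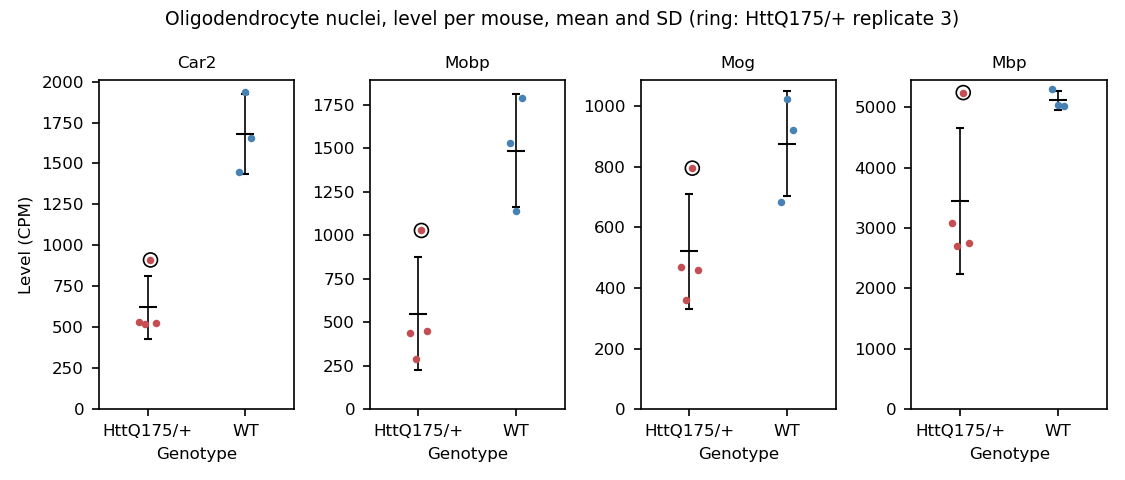
Level per mouse (CPM, 1 point per mouse) of Car2 and of 3 oligodendrocyte marker genes in oligodendrocyte nuclei, with HttQ175/+ left and WT right; the black mark and bar are the mean and SD, and the ring is HttQ175/+ replicate 3. For Car2 and Mobp the genotypes do not overlap, while the ringed mouse reaches WT levels of Mog and Mbp.

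In the other types the genotypes mostly overlapped for Car2. In astrocytes it had 191.6, 104.4, 144.0 and 165.8 CPM in HttQ175/+ replicates 1 to 4 and 143.5, 86.2 and 117.6 CPM in WT replicates 1 to 3, with a log2 change of 0.30 ± 0.35. The ranges overlapped. Car2 was the 1 member of 7 to pass the filter in astrocytes and was not past the threshold, where 0% of 1873 genes were (limma; 250 had an unadjusted p under 0.05). Astrocyte nuclei held 958 to 1969 CPM of summed oligodendrocyte markers in HttQ175/+ mice and 537 to 964 CPM in WT mice. Car2 in astrocyte nuclei with no UMI of those markers averaged 100.8 ± 39.0 CPM in 4 HttQ175/+ mice and 73.7 ± 34.4 CPM in 3 WT mice (SD).

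In dSPNs Car2 was low, at 35.6, 30.9, 28.0 and 4.6 CPM in HttQ175/+ replicates 1 to 4 and 10.7, 19.5 and 8.1 CPM in WT replicates 1 to 3. Replicate 4 lay below all WT mice and the other 3 HttQ175/+ mice above them, and the log2 change was 0.54 ± 0.48. Of the Car2 UMIs in dSPNs, 57 of 66 in HttQ175/+ mice and 12 of 14 in WT mice came from nuclei with no oligodendrocyte marker UMI. Such nuclei were 1203 of 1296 dSPN nuclei in HttQ175/+ mice and 480 of 513 in WT mice. The source of these Car2 UMIs was not tested. In Sst interneurons it was 18.6 to 72.3 CPM in HttQ175/+ mice and 0 to 12.955 CPM in WT mice, from 16 and 1 UMIs in 211 and 77 nuclei. No share of all genes without overlap is given for this type, so nothing is read from these ranges. Summed oligodendrocyte markers in Sst nuclei were 141 to 598 CPM in HttQ175/+ mice and 86 to 306 CPM in WT mice. Their part in this difference was not tested. In endothelial nuclei Car2 averaged 56.9 ± 53.1 CPM in HttQ175/+ mice and 91.8 ± 94.5 CPM in WT mice, and in oligodendrocyte progenitors 63.9 ± 77.4 CPM and 77.9 ± 81.1 CPM (SD, n = 4 and 3), with wide overlap and at most 8 UMIs per mouse. Whether the change of Car2 differs between oligodendrocytes and other types was not tested.

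Car12, the transmembrane enzyme with an extracellular site, was highest in SPNs. Over the 7 mice it averaged 72.0 CPM in dSPNs and 60.4 CPM in iSPNs. In the few SPNs of unknown subtype it averaged 58.0 CPM over the 5 mice with at least 5 such nuclei, 4 HttQ175/+ and 1 WT. The ranges of these types overlapped. In the 3 WT mice alone dSPNs averaged 133.0 ± 20.1 CPM and iSPNs 84.6 ± 28.5 CPM (SD). SPNs of unknown subtype averaged 259.4 ± 185.7 CPM there, from 5 UMIs in 11 nuclei.

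In dSPNs Car12 had 26.8, 30.4, 29.9 and 17.6 CPM in HttQ175/+ replicates 1 to 4, against 152.2, 112.2 and 134.6 CPM in WT replicates 1 to 3. Every HttQ175/+ mouse lay below every WT mouse, and the highest of them had 30.4 CPM. The log2 change was -2.32 ± 0.23. Car12 UMIs were present in 5.02% of 1296 HttQ175/+ nuclei (95% exact binomial interval 3.89 to 6.35%) and in 26.1% of 513 WT nuclei (22.4 to 30.2%). Both intervals cover counting error over pooled nuclei and not the spread between mice. After thinning to 1000 UMIs the shares were 2.85% and 12.5%. In astrocytes, where Car12 was near background, the shares were 2.53% and 2.94%, and 0.51% and 1.96% after thinning, at median depths of 1924 and 1418 UMIs.

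In iSPNs the Car12 groups overlapped. HttQ175/+ replicates 1 to 4 had 21.5, 36.6, 69.5 and 40.9 CPM and WT replicates 1 to 3 had 52.6, 94.4 and 107.0 CPM, a log2 change of -1.01 ± 0.33 that was not past the threshold. HttQ175/+ replicate 3 stood above WT replicate 1. Whether the change of Car12 differs between dSPNs and iSPNs was not tested.

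Car11, a secreted relative without enzyme activity, was the member with most UMIs. Its mean level over mice was 273.8 CPM in eccentric SPNs, 203.3 CPM in iSPNs and 175.9 CPM in dSPNs, followed by oligodendrocyte progenitors (96.0 CPM) and oligodendrocytes (95.3 CPM), and neighbours in this order overlapped. In dSPNs Car11 had 57.6, 121.5, 202.7 and 44.2 CPM in HttQ175/+ replicates 1 to 4, against 220.5, 231.3 and 353.4 CPM in WT replicates 1 to 3. The groups did not overlap, with HttQ175/+ replicate 3 just under the lowest WT mouse, and the log2 change was -1.63 ± 0.39. In iSPNs Car11 had 54.2, 136.3, 197.7 and 65.6 CPM in HttQ175/+ replicates 1 to 4, against 414.1, 224.1 and 331.3 CPM in WT replicates 1 to 3. The order of the HttQ175/+ mice was nearly that of dSPNs, again without overlap, and the log2 change was -1.68 ± 0.35.

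Shares of nuclei with a Car11 UMI separated the genotypes less than CPM did. In dSPNs the share was 13.4% of HttQ175/+ nuclei and 30.4% of WT nuclei, and 8.33% and 21.2% after thinning. HttQ175/+ replicate 3, at 32.2%, lay inside the WT range of 26.4 to 35.1%, and at 14.7% after thinning it lay inside the WT range of 14.1 to 26.8%. In iSPNs it was 14.8% and 32.4%, or 10.4% and 22.2% after thinning. In astrocytes 7.07% and 6.86% of nuclei had a Car11 UMI, and 5.05% and 1.96% after thinning.

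In eccentric SPNs Car11 averaged 187.1 CPM in HttQ175/+ mice and 389.4 CPM in WT mice, from 8 to 46 nuclei per mouse, and the genotypes overlapped. In oligodendrocytes it had 60.6, 84.4, 92.1 and 68.9 CPM in HttQ175/+ replicates 1 to 4 and 141.9, 147.4 and 71.6 CPM in WT replicates 1 to 3, a log2 change of -0.54 ± 0.33 that was not past the threshold. WT replicate 3 lay among the HttQ175/+ mice. The SPN markers in oligodendrocyte nuclei, given above, overlapped narrowly between genotypes, the HttQ175/+ mice reaching lower. Of the Car11 UMIs in those nuclei 10 of 65 in HttQ175/+ mice and 0 of 42 in WT mice came from nuclei with no SPN marker UMI. The same markers were also lower in HttQ175/+ dSPNs and iSPNs than in WT ones. Neither their level nor the absence of their UMIs therefore compares SPN RNA between genotypes.

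**Figure D3:**
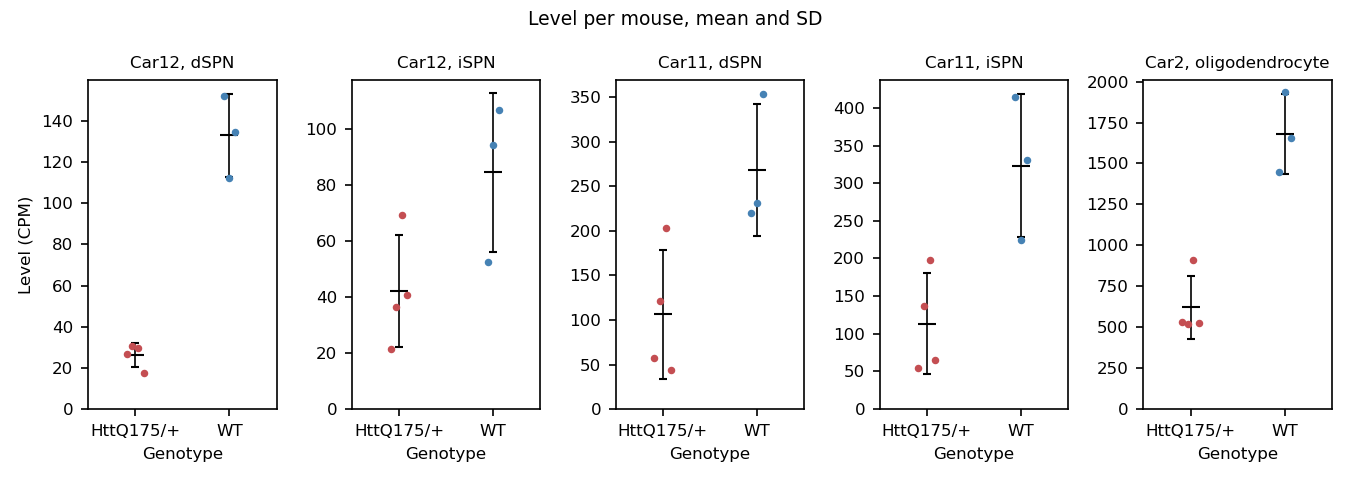
Level per mouse (CPM, 1 point per mouse) of Car12 and Car11 in dSPNs and iSPNs and of Car2 in oligodendrocytes, with HttQ175/+ left and WT right; the black mark and bar are the mean and SD. The genotypes do not overlap in 4 panels and overlap for Car12 in iSPNs.

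Of 7 members, 4 passed the filter in dSPNs and 2 in iSPNs. Car12 and Car11 were past the threshold in dSPNs and Car11 in iSPNs, where 3.94% of 8796 genes and 2.29% of 5908 genes were. The same pairs of gene and type had every HttQ175/+ mouse below every WT mouse, as did 5.26% of the genes in dSPNs and 5.4% in iSPNs. Since the members were selected on this difference, nothing is read from these counts. Car11 was no longer past the threshold in dSPNs without HttQ175/+ replicates 1 or 4 or WT replicates 1 or 3, nor in iSPNs without HttQ175/+ replicate 1 or WT replicates 1 or 3; over all fits that left out a mouse its log2 change was -2.0 to -1.30 and -2.01 to -1.41. Over all genes 128 rose and 219 fell in dSPNs and 31 rose and 104 fell in iSPNs. Without TMM scaling the split was 226 and 162 in dSPNs and 43 and 75 in iSPNs, because scaling moved the median log2 change of all genes from 0.14 to 0.03 in dSPNs and from 0.10 to 0.00 in iSPNs; Car12 and Car11 kept their direction without it.

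The defining genes of SPNs moved with Car12 and Car11. The summed level of Ppp1r1b, Pde10a, Rgs9 and Bcl11b was 3068 to 3439 CPM in dSPNs of HttQ175/+ mice and 7073 to 7589 CPM in dSPNs of WT mice. In iSPNs it was 3446 to 3970 CPM in HttQ175/+ mice and 7880 to 8022 CPM in WT mice. Of these 4, all fell in dSPNs and 3 in iSPNs (not Bcl11b). The phosphodiesterase Pde10a had a log2 change of -1.35 ± 0.10 in dSPNs (limma, adjusted p = 2.5e-05), lower in 4 of 4 HttQ175/+ mice than in any WT mouse. Markers of astrocytes in dSPNs were 45.7 to 95.5 CPM in HttQ175/+ mice and 60.5 to 113.2 CPM in WT mice. Markers of eccentric SPNs in dSPNs summed to 81.8 to 110.8 CPM in HttQ175/+ mice and 31.6 to 49.0 CPM in WT mice. Col11a1 made up most of the gap, at 55.1 CPM in HttQ175/+ mice and 8.08 CPM in WT mice, while Otof had 31.2 CPM and 27.8 CPM. Those of cortical excitatory neurons summed to 18.3 to 39.5 CPM in HttQ175/+ mice and 3.1 to 10.1 CPM in WT mice, of which Neurod2 alone averaged 24.5 CPM in HttQ175/+ mice and 1.26 CPM in WT mice. Those of iSPNs summed to 64.8 to 103.2 CPM in HttQ175/+ mice and 117.8 to 175.6 CPM in WT mice, and those of Sst interneurons to 6.55 to 15.5 CPM and 5.24 to 52.1 CPM. The part of these markers and of the wider fall of SPN genes in the changes of Car12 and Car11 was not tested.

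**Figure D4:**
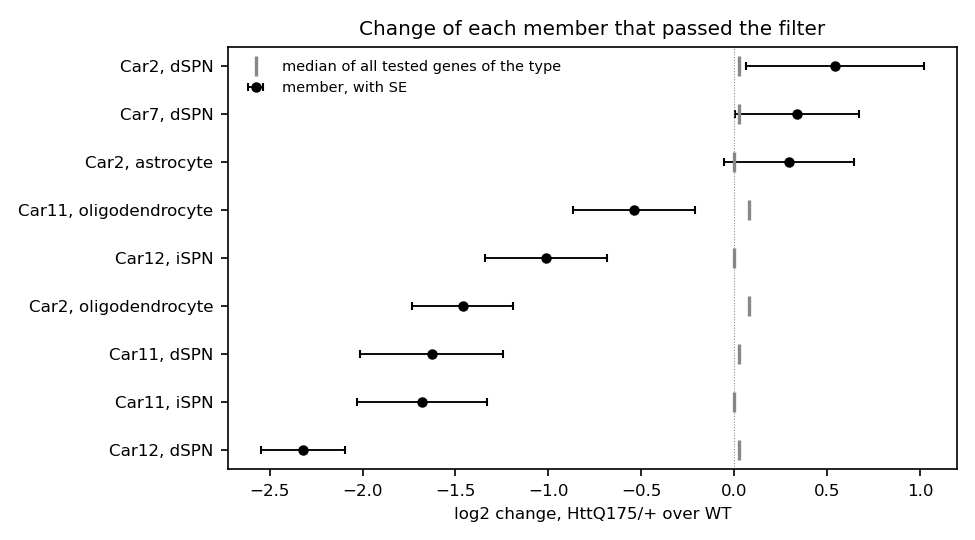
Change between genotypes (horizontal axis, log2 of HttQ175/+ over WT) for each pair of member and type that passed the filter, as a point with its SE; the grey tick is the median of all genes tested in the type. Car12 in dSPNs lies lowest at -2.32, Car11 in iSPNs and dSPNs and Car2 in oligodendrocytes follow, and Car2 and Car7 in dSPNs and Car2 in astrocytes lie above 0.

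Because Car12 and Car11 were both lower in dSPNs, the letters of their promoters are shown. They span 250 bases before to 50 after the start in RefSeq on GRCm38.p6, plus strand, and entries were matched for 5 of the 7 members (not for Car2 and Car8). Car12 is at chr9:66713436-66713735, and Car11 at chr7:45699554-45699853, the entry of 2 whose start was nearest to that of the principal transcript. Capitals mark matches to a motif.

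Car12: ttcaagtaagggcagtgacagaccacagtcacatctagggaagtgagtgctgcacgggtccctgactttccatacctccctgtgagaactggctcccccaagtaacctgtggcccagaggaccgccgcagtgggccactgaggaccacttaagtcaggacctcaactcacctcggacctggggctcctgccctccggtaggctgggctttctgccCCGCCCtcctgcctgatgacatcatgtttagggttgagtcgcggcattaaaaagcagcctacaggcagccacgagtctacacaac
Car11: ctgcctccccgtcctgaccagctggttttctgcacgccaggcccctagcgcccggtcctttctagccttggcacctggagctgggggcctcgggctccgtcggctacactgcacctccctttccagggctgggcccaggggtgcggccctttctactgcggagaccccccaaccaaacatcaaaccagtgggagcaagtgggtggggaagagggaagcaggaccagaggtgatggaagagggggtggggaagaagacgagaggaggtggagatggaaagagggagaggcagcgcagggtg

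On both strands 6 motifs were searched, a set written after the letters of these promoters had been seen: the GC box GGGCGG, the CCAAT box, the TATA box TATAAA, the AP-1 site TGACTCA, the full cyclic AMP element TGACGTCA and a MEF2-type site, CTA and TAG with any 4 bases between. Car12 held 1 match, a GGGCGG on the minus strand at base 216, and Car11 held none. Of 32851 promoters of the same length, 35.7% held GGGCGG, 37.4% CCAAT, 13.6% TATAAA, 5.2% TGACTCA, 1.8% TGACGTCA and 3.7% the MEF2-type site. Of the 300 bases, 58.3% were G or C in Car12 and 64.7% in Car11.

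Car7, a cytosolic enzyme of neurons, was sparse. It averaged 29.2 CPM in iSPNs, 27.7 CPM in eccentric SPNs and 24.7 CPM in dSPNs, and its mean of 34.2 CPM in microglia rested on 7 UMIs. In iSPNs it had 45.5, 24.1, 18.6 and 37.5 CPM in HttQ175/+ replicates 1 to 4 and 22.7, 36.6 and 19.5 CPM in WT replicates 1 to 3, with wide overlap. In dSPNs it had 27.4, 24.8, 28.5 and 28.4 CPM in HttQ175/+ replicates 1 to 4 and 20.9, 9.3 and 33.3 CPM in WT replicates 1 to 3. The HttQ175/+ mice lay close together inside the WT range, and the log2 change was 0.34 ± 0.33. Car7 made up 15.1% of the members' UMIs in HttQ175/+ dSPNs (95% exact binomial interval 12.1 to 18.6%) and 5.3% in WT dSPNs (3.7 to 7.3%). These intervals cover counting error over pooled UMIs and not the spread between mice. The share also depends on the other members. Mean Car7 in dSPNs was 27.3 CPM in HttQ175/+ mice and 21.2 CPM in WT mice. Car11 had 106.5 and 268.4 CPM there, Car12 26.2 and 133.0 CPM, and Car2 24.8 and 12.8 CPM. The share therefore does not compare the level of Car7 between genotypes.

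Car4, the enzyme that lines brain capillaries, was found almost entirely in endothelial nuclei, with 84 of its 97 UMIs. It had 517.4, 196.5, 348.2 and 685.6 CPM in HttQ175/+ replicates 1 to 4 and 391.6, 322.1 and 887.9 CPM in WT replicates 1 to 3. The genotypes overlapped, and with 6 to 34 endothelial nuclei per mouse no fit was made. A Car4 UMI was seen in 36.1% of 83 HttQ175/+ endothelial nuclei and 51.7% of 29 WT ones, or 22.9% and 31.0% after thinning. In dSPNs the shares were 0.31% and 0 of 513 nuclei, the WT count allowing up to 2.12 CPM. The lowest endothelial mouse had 196.5 CPM and the highest mouse of any other type 29.5 CPM.

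Car10, like Car11 a secreted neurexin ligand, averaged 59.3 CPM in Sst interneurons and 51.0 CPM in eccentric SPNs. In cholinergic interneurons it averaged 36.2 CPM over the 4 HttQ175/+ mice, and the ranges of these types overlapped. In Sst interneurons it had 108.7, 30.6, 22.0 and 99.0 CPM in HttQ175/+ replicates 1 to 4 and 0, 72.4 and 82.1 CPM in WT replicates 1 to 3. The groups overlapped throughout. The share of Sst nuclei with a Car10 UMI was 12.8% in HttQ175/+ mice and 11.7% in WT mice, and 7.11% and 1.30% after thinning. In dSPNs it was 0.77% and 1.75%. None of the 7 members passed the filter in Sst interneurons, where 0% of 2296 genes were past the threshold (limma; 180 had an unadjusted p under 0.05).

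Car8, the intracellular relative known from cerebellar Purkinje cells, gave 25 UMIs, 10 in oligodendrocyte progenitors and 9 in astrocytes. In dSPNs 0 UMIs were seen in either genotype, which allows up to 1.07 CPM in HttQ175/+ mice and 2.12 CPM in WT mice. Its level was not compared between genotypes at this depth. The annotation places a pseudogene and a miRNA gene within Car8 and a small nuclear RNA gene within Car10; no source used here states whether counting used the strand.

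**Figure D5:**
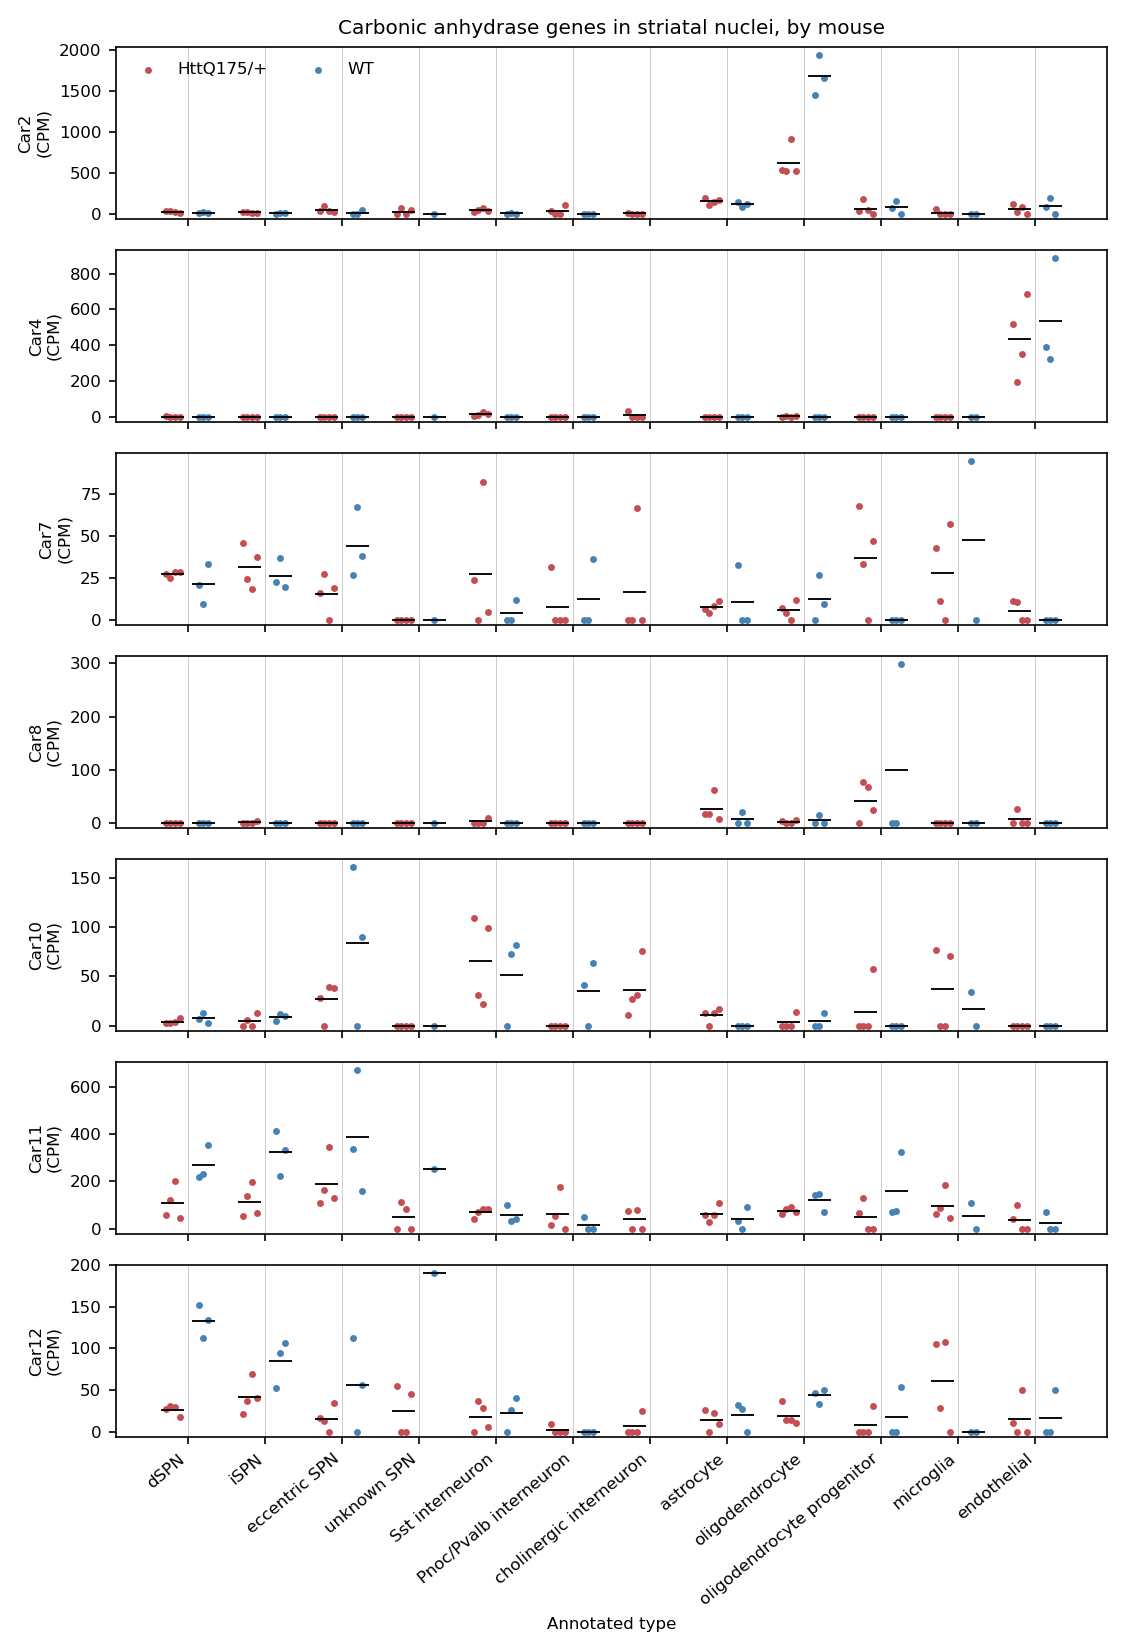
Level of the 7 members (CPM, a panel each with its own linear axis) in the 12 annotated types, 1 point per mouse with at least 5 nuclei of the type, HttQ175/+ left and WT right, the black line being the mean. Car2 stands out in oligodendrocytes and Car4 in endothelial nuclei, while Car11 is spread over all types.

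By Pearson correlation of log2 levels across the 12 types, each member had close neighbours; the types share libraries, so these are descriptions. For Car2 they were Gsn (r = 0.97), Tmem98 (0.95) and Ermn (0.95), all highest in oligodendrocytes. Car12 was most like Akap5 (0.98), Oprk1 (0.98) and Sv2b (0.97), and Car11 most like Grm4 (0.95), Slc9a2 (0.92) and Adamts3 (0.92). Car10 was most like Col11a1 (0.94), Lrrc55 (0.93) and Capn6 (0.90). Car4 was most like Rhbdf2, Egflam and Slc19a3 (0.99 or more each). Car8 (Scrg1, Olfml2a and S1pr2) and Car7 (Rap1gap2, Rnf32 and RP24-236C17.2) rested on few UMIs in their highest type.

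The other Car genes were sparse, and none passed the test. Car14, a transmembrane enzyme, gave 158 UMIs, 121 of them in oligodendrocytes. There it had 57.5, 79.7, 254.7 and 96.0 CPM in HttQ175/+ replicates 1 to 4 and 166.7, 189.0 and 169.5 CPM in WT replicates 1 to 3, a log2 change of -0.68 ± 0.36 (limma, adjusted p = 0.423). Replicate 3 lay above every WT mouse and the other 3 HttQ175/+ mice below. The mitochondrial enzymes Car5b and Car5a gave 63 and 20 UMIs and the tumour-associated Car9 gave 11. Car15 gave 3, Car3 and Car13 1 each, and Car1 and Car6 0. The list also held 2 receptor phosphatases with a carbonic anhydrase domain, Ptprz1 with 1398 UMIs, more in astrocytes than in any other type, and Ptprg with 370. Of 11 genes in this list 3 passed the filter in some type, and 0 of 6 pairs of gene and type passed (limma; 1 had an unadjusted p under 0.05). That 1 was Ptprz1 in oligodendrocytes (1.29 ± 0.54, adjusted p = 0.284).

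Bicarbonate transporters move the product of these enzymes across membranes. Of 13 listed, 7 could be tested in dSPNs, where 1 fell and 0 rose, with a list median log2 change of 0.05 beside 0.03 for all genes. The 1 that fell was Slc4a11, a membrane transporter of the same family by sequence as the bicarbonate exchangers. It had 2, 3, 1 and 1 UMIs (3.28, 3.08, 2.23 and 2.03 CPM) in HttQ175/+ replicates 1 to 4, against 8, 13 and 19 UMIs (21.9, 52.5 and 35.9 CPM) in WT replicates 1 to 3. All HttQ175/+ mice lay below all WT mice, with a log2 change of -2.69 ± 0.38 (limma, adjusted p = 0.00148) whose size depends on the pseudocount at these counts. It passed the filter of 18.3 CPM in at least 3 mice only through the WT mice, where it was high. Its call is therefore a description and supports nothing. In iSPNs it did not pass the filter, with 1.19 to 5.39 CPM in HttQ175/+ mice and 11.5 to 24.3 CPM in WT mice. Others in dSPNs, named after their values were seen, were higher in 4 of 4 HttQ175/+ mice than in any WT mouse and did not pass. They were Slc4a8, at 46.4 CPM in HttQ175/+ mice and 23.2 CPM in WT mice (0.83 ± 0.26, limma, adjusted p = 0.0996), Slc4a3 (0.42 ± 0.14, adjusted p = 0.132) and Slc4a10 (0.25 ± 0.18, adjusted p = 0.523). The rest overlapped between genotypes and did not pass (limma). They were Slc4a4 (-0.42 ± 0.16, adjusted p = 0.201), Slc4a7 (-0.29 ± 0.21, adjusted p = 0.516) and Slc4a2 (0.05 ± 0.44, adjusted p = 0.969). No share of all genes higher in every HttQ175/+ mouse is given, so nothing is read from the genes that were. In the other 4 types 0 of the 15 pairs tested passed (limma), and 1 had an unadjusted p under 0.05. That 1, named after its values were seen, was the anion exchanger Slc4a3 in astrocytes (1.72 ± 0.53, adjusted p = 0.190), with overlapping genotypes.

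Binding partners of the relatives without activity included 1 gene that fell in both SPN types. Itpr1, the calcium release channel bound by Car8, had 387.4, 284.8, 249.4 and 290.8 CPM in dSPNs of HttQ175/+ replicates 1 to 4, against 523.1, 444.2 and 517.0 CPM in WT replicates 1 to 3. It fell by 0.83 ± 0.17 (limma, adjusted p = 0.012), lower in 4 of 4 HttQ175/+ mice than in any WT mouse. In iSPNs it had 331.9 to 365.9 CPM in HttQ175/+ mice and 587.5 to 650.6 CPM in WT mice, and fell by 0.90 ± 0.16 (limma, adjusted p = 0.00624).

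Proton and lactate transporters and genes of chloride balance and acid sensing gave no call. Of 11 and 13 pairs of gene and type tested, 0 passed in each list (limma; 2 and 2 had an unadjusted p under 0.05). The smallest p in the first list was that of Slc9a2, a sodium-proton exchanger, in dSPNs, at 12.1 CPM in HttQ175/+ mice and 24.9 CPM in WT mice (-0.95 ± 0.31, adjusted p = 0.112), followed by Slc9a5 (-0.45 ± 0.20, adjusted p = 0.243). In the second list it was the acid-sensing channel Asic1 in dSPNs, at 76.6 CPM in HttQ175/+ mice and 109.0 CPM in WT mice (-0.59 ± 0.20, adjusted p = 0.133), followed by the chloride importer Slc12a2 in oligodendrocytes (-0.66 ± 0.30, adjusted p = 0.347).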

How the data were processed

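Single-nucleus RNA was measured in striatum of 4 HttQ175/+ and 3 WT mice, 1 library per mouse, grouped by the labelled genotype. Cell Ranger 3.0.2, Seurat and the mm10 build are named in the submitters' processing notes; how nuclei were filtered and typed is not stated in the sources used. The values the authors deposited for each mouse are natural log values, with a gene's UMIs scaled to 10000 for the nucleus and 1 added before the log. Whole UMIs were recovered for 100% of 5824756 values above 0 (tolerance 0.02). Cell type, mouse and genotype came from the other deposited table, the authors' annotation, whose genotypes matched the labels in every nucleus. A deposited table smoothed across nuclei (4524 columns) was not used. Doublets were not called; an alternative left out the deepest 10% of nuclei of each mouse.

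Linear values were averaged over the nuclei of a mouse and type as CPM, scaled by TMM and log2 transformed after adding what 2 UMIs are worth in the median mouse. That pseudocount was 3.67 CPM for dSPNs, 8.31 for iSPNs, 22.7 for astrocytes, 15.1 for oligodendrocytes and 22.5 for Sst interneurons; it understates changes of low genes. A gene was tested if it had 15 UMIs or more over all mice and a level worth 10 UMIs of the median mouse in at least 3. limma 3.58.1 (limma-trend, two-sided, R 4.3.3) tested HttQ175/+ against WT with Benjamini-Hochberg adjustment over all genes of a type, at an adjusted p under 0.05; the script was checked on simulated data. Printed CPM are before TMM. The 5 tested types had at least 18 nuclei in every mouse. Each mouse is a separate animal by the labels. Intervals and floors (3 UMIs) cover counting error only; scipy 1.17.1 was used.

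The members and gene lists were chosen with earlier results of these data known. Of the lists, genes past the test were named, or the 2 with the smallest p where a list had none; the 3 genes most like each member were ranked on log2 of CPM plus 20. The motif set (1 of its 6 motifs had been dropped after its result was seen and was put back), the coding stretches, the other family genes shown by mouse, the shares of nuclei selected for thinning and the levels in nuclei without another type's markers were chosen after values or sequences had been seen. Other alternatives changed the scaling, pseudocount, filter, weighting of nuclei and mice included. Some results are not reported here.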

Additional observations from a re-analysis of the deposited data

Results flagged for a closer look

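Car2 in oligodendrocytes stood at 910.7 CPM in HttQ175/+ replicate 3, while the other 3 HttQ175/+ mice lay between 520.2 and 531.6 CPM; the gap to the nearest mouse was 0.971 of the group's range, above Dixon's 95% critical value for 4 samples. Of the 16 groups of 4 examined, this was the 1 with a mouse so far from the others, and chance marks about 1 in 20 groups. The mouse stayed below every WT mouse for Car2. In oligodendrocyte nuclei with no UMI of the 4 SPN markers, HttQ175/+ replicates 1 to 4 had 1022.5, 797.9, 995.1 and 1034.3 CPM of Car2. Those nuclei were 20 of 73, 35 of 108, 35 of 57 and 36 of 109, and replicate 3 did not stand apart in them. The part of the SPN markers in the flagged gap was not tested.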

How the results depend on the processing

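The count of genes past the threshold was 347 in dSPNs, 135 in iSPNs, 23 in oligodendrocytes and 0 in astrocytes and Sst interneurons. Leaving out 1 mouse at a time gave 196 to 321, 53 to 138, 1 to 108, 0 to 3 and 0 to 1. The 108 came without HttQ175/+ replicate 3, and every other omission gave 6 or fewer in oligodendrocytes. In dSPNs the count moved by over 1.5 times without HttQ175/+ replicates 1, 2 or 4 or WT replicate 1, and in iSPNs without HttQ175/+ replicate 1 or WT replicates 1 or 3. In oligodendrocytes a pseudocount worth 0.5 UMI gave 15, no filter 2, summed UMIs 14 and leaving out the deepest nuclei 14. Astrocytes gave 2 without the deepest nuclei, and Sst interneurons 2 with no filter; the cause was not tested.

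For the members, selected on this difference, the counts of alternatives past the threshold are descriptions and support nothing. Car12 in dSPNs was past it in 14 of 14 (-2.47 to -1.95). Car11 was in 10 of 14 in dSPNs (-2.0 to -1.30), failing without HttQ175/+ replicates 1 or 4 or WT replicates 1 or 3, and in 11 of 14 in iSPNs (-2.01 to -1.41), failing without HttQ175/+ replicate 1 or WT replicates 1 or 3. Car2 in oligodendrocytes was in 7 of 14 (-1.67 to -1.19); it failed with no filter and without any mouse but HttQ175/+ replicate 3. Car7 in dSPNs ranged from -0.09 (without WT replicate 2) to 0.70. Itpr1 kept its call in 12 of 14 alternatives in dSPNs, failing without WT replicates 1 or 3, and in 14 of 14 in iSPNs. Slc4a11 kept its call in the 9 where it passed the filter (-3.43 to -1.58), which in the main fit it did only through the WT mice. Mobp kept its call in 6 of 14, failing with no filter, with summed UMIs and without any mouse but HttQ175/+ replicate 3. Levels in nuclei without another type's markers were an alternative chosen after seeing the data. No paired analysis was possible because no label number links a mouse of one genotype to one of the other. Few nuclei limit the rarer types: WT mice held 1 to 4 cholinergic interneurons each.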

Other observations

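In oligodendrocyte nuclei with no UMI of the 4 SPN markers (126 of 347 in HttQ175/+ mice, 59 of 121 in WT mice), Car12 gave 1 of its 19 UMIs in HttQ175/+ mice and 0 of its 16 in WT mice, while Car2 gave 203 of 432 and 260 of 374. These markers were lower in HttQ175/+ SPNs too, so nuclei without their UMIs are not alike between genotypes.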
